A study of Mus musculus with 24 samples.

Results

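Sox3 and Neurog3 were followed through every group of a bulk RNA-seq series on mouse spermatogonia (SPG) at postnatal day 7. They are 2 genes of the 23177 in the table of the Zbtb16 set and of the 21688 in the table of the Sox3 set, and both were found by symbol in both tables. The Zbtb16 set holds WT mice and mice labelled Zbtb16 null, which the study's methods describe as homozygous for the luxoid allele of Zbtb16 (lu/lu). The Sox3 set holds WT mice and mice labelled Sox3 cKO, made from floxed Sox3 and a Ddx4-Cre transgene, which acts in germ cells. Both lines were on the C57BL/6J background, and whether the WT mice of the Sox3 set carried the floxed allele or Cre is not given in the sources used here. In each genotype, magnetic beads took THY1+ undifferentiated SPG (uSPG) and KIT+ differentiating SPG (dSPG) from the pooled testes of 3 mice, with 3 libraries for each of the 4 groups in a set. Beads enrich rather than purify, so that each library is a mixture. In such bulk samples fewer cells of a type and less RNA per cell cannot be told apart.

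SOX3 is an X-linked transcription factor of the SOXB1 group, whose HMG box binds DNA. In the juvenile testis it marks undifferentiated SPG that have left the stem state and are about to enter differentiation, called progenitors. Neurog3 encodes a basic helix-loop-helix (bHLH) factor that pairs with E proteins on E-box sequences. It is best known for starting the endocrine lineage of the pancreas and is also a standard marker of progenitor SPG. ZBTB16 (PLZF) is a zinc finger transcription factor made by uSPG and needed to maintain spermatogenesis.

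Sox3 (ENSMUSG00000045179) is a protein-coding gene of 1 exon on the minus strand of chromosome X, at 60891366 to 60893430 of the mm10 (GRCm38) build. Neurog3 (ENSMUSG00000044312), also protein-coding, lies on the plus strand of chromosome 10, at 62133090 to 62134763. The promoter window of Neurog3 is shown because its transcript is the one that fell in both mutants. RefSeq gives it as chr10:62132840-62133139 on GRCm38.p6, plus strand, from 250 bases before the start site to 50 after it. The table of windows had an entry for 1 of the 2 genes. Capitals mark matches to 2 motifs, ACAAAG (a core that SOX factors bind) and CANNTG (the E-box), searched on both strands.
Neurog3 promoter: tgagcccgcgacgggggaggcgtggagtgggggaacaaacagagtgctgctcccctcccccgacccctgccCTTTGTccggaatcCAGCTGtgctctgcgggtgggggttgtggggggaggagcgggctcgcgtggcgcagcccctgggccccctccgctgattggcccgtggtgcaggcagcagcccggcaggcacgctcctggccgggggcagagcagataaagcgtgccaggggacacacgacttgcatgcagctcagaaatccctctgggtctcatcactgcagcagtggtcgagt
The capitals at position 72 of the window (-179 from the start site) are ACAAAG read on the minus strand. Those at position 86 (-165) are an E-box, and the matches do not overlap. ACAAAG occurred in 18.7% and CANNTG in 72.3% of all 32851 promoter windows in the table. ACAAT, another SOX core, and TATAAA, the TATA box, were also searched and were not in this window. They occurred in 31.0% and 13.6% of windows. These are matches of letters, and binding was not measured here.

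The labels were first checked against Thy1 and Kit, the genes of the surface proteins used for sorting. Levels are FPKM, which scale the reads of a gene to its length and to the depth of the library. In the Zbtb16 set, Thy1 was between 3.29 and 4.67 FPKM in the 6 THY1+ libraries and between 0.156 and 0.666 in the 6 KIT+ libraries, and Kit was lower in every THY1+ library (13.8 to 21.1) than in any KIT+ library (51.7 to 74.8). The cKO libraries of the Sox3 set followed the same order, with Thy1 at 3.61 to 5.26 FPKM in THY1+ and 0.244 to 0.292 in KIT+. The WT libraries of that set went against their labels. Those labelled THY1+ had Thy1 at 0.213 to 0.254 and Kit at 45.6 to 80.1 FPKM, and those labelled KIT+ had Thy1 at 3.59 to 4.06 and Kit at 18.8 or less. They are therefore called "labelled" throughout. The cKO groups are compared with the WT group that shares their markers, with the WT group that shares their label, and with the mean of both WT groups, which is the same whichever way the labels run.

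**Figure D1:**
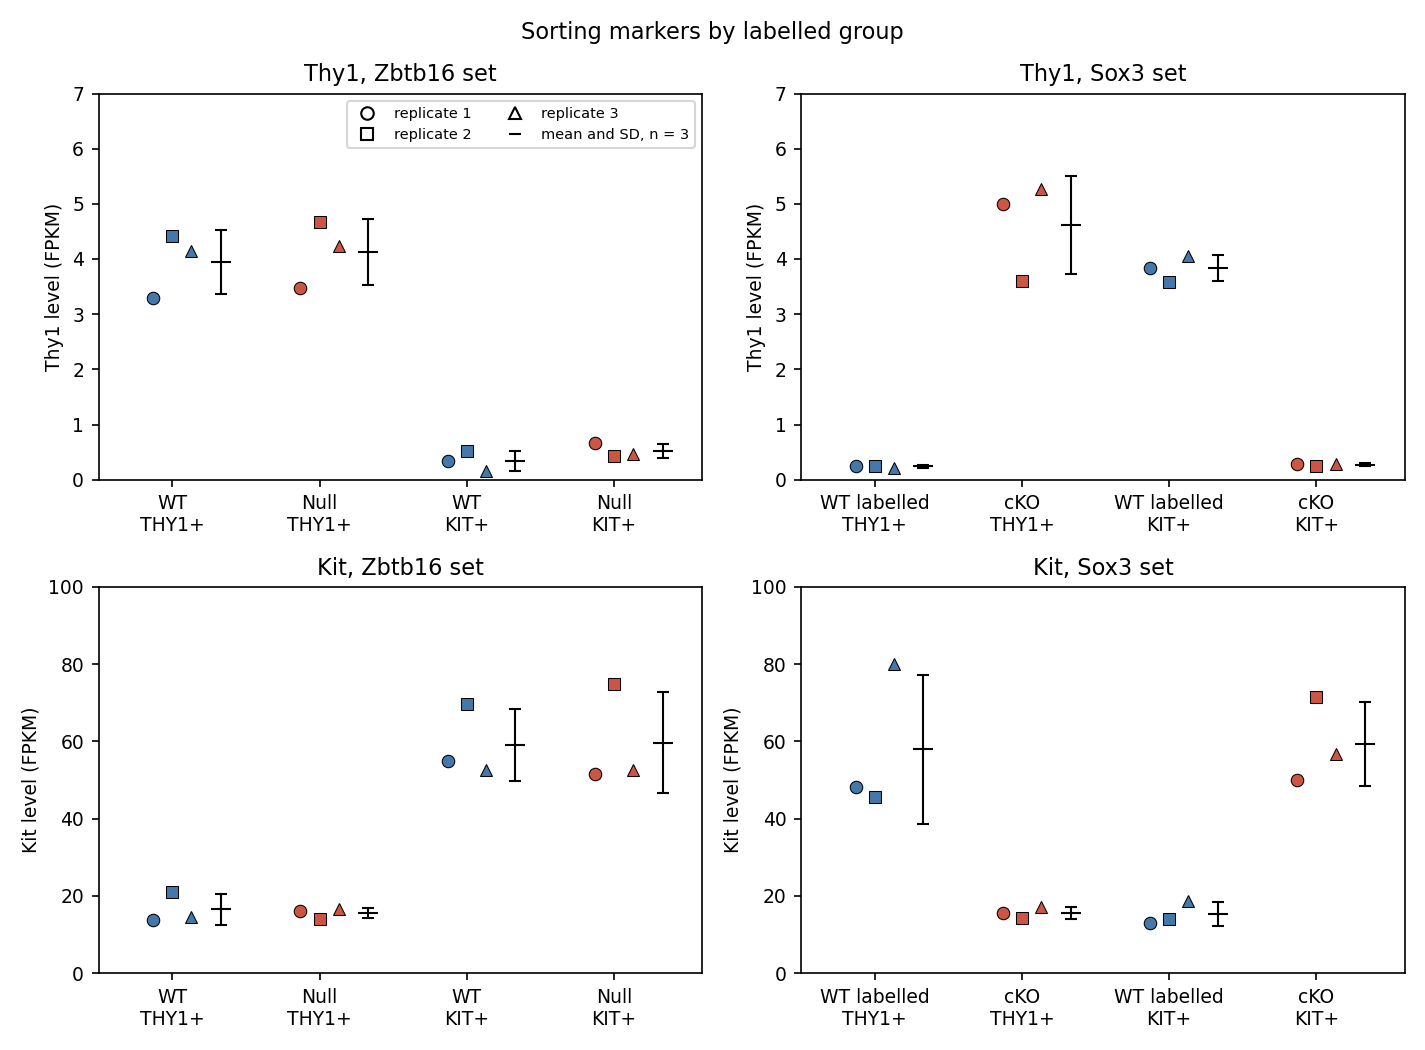
Thy1 and Kit in FPKM (linear axes from 0) in every library, by labelled group. Points are libraries, the shape gives the replicate number, blue is WT and red is mutant, and bars are the mean and SD of 3 libraries. In the Sox3 set the WT libraries labelled THY1+ lie with the KIT+ cKO libraries for both genes.

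Depth, read from the steps between low FPKM values, was 25.95 to 35.19 M reads in the Zbtb16 set. In the Sox3 set it was 28.25 to 31.89 M reads in replicate 1 and 11.02 to 14.92 M reads in replicates 2 and 3. The targeted gene of the first set, Zbtb16, was at 55.7, 58.7 and 42.0 FPKM in WT THY1+ and 17.5, 18.2 and 15.6 in null THY1+ libraries, and fell by 1.59 on the log2 scale (SE 0.166, adjusted p = 0.00068). In KIT+ libraries it was at 14.4, 23.0 and 17.1 in WT and 6.69, 6.59 and 6.11 in null (log2 difference -1.45, adjusted p = 0.00502). The germ cell genes Ddx4, Dazl, Mael and Tdrd9 summed to 590 to 1230 FPKM over all 24 libraries. Every THY1+ group also held macrophage transcripts (4 of 5 markers in the table) that summed to 223 to 748 FPKM, against at most 13.8 in KIT+ groups. Here and below, the WT groups of the Sox3 set are counted by their markers. The 5 Leydig cell markers summed to 1190 to 4880 FPKM in KIT+ and to 47.6 to 117 in THY1+ groups. No marker of these lists, or of those for T cells, Sertoli, stromal and endothelial cells, was at 0 in all 3 libraries of any group.

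Neurog3 was lower in Zbtb16 null than in WT libraries in both fractions, while Sox3 was called in neither by the fit of group means alone. Changes are given as log2 differences of FPKM + 0.1. A call means an adjusted p (limma, Benjamini-Hochberg over all genes tested) of at most 0.05 and at least 1.5-fold.

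In THY1+ cells the FPKM of Neurog3 were 7.85, 6.79 and 5.22 in WT and 3.07, 2.64 and 2.55 in null libraries. All null libraries were below all WT libraries. The null mean was 41.6% of the WT mean, and the log2 difference was -1.22 (SE 0.202, 95% interval -1.66 to -0.78, adjusted p = 0.00738). This call stands among 283 genes called lower, 1.26% of the 22374 tested.

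In KIT+ cells Neurog3 was at 3.89, 4.95 and 3.50 FPKM in WT and at 2.23, 1.61 and 1.43 in null libraries. Again the groups did not overlap, with the null mean at 42.7% of the WT mean. The log2 difference was -1.19 (SE 0.202, adjusted p = 0.0389), 1 of only 15 genes called lower (0.0670% of genes tested). That call was lost in 5 of the 6 fits that left out a library, with adjusted p up to 0.189. These were the fits without null KIT+ replicate 2 or 3 or any of the 3 WT KIT+ libraries, and the difference stayed between -1.36 and -1.05 in all 6. With the replicate number as a block in the fit of all libraries, it was a call (adjusted p = 0.0102). That block raised the calls over all genes from 58 to 513. Averaged over both fractions the difference was -1.21 (SE 0.143, adjusted p = 0.000981), and 0.746% of genes were called lower. It was called in each of the 12 fits that left out a library. These fits count THY1+ and KIT+ libraries as independent. If both fractions came from the same pools of testes, the SE of the average may be too small.

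The fall of Neurog3 did not differ detectably between the fractions: the KIT+ minus THY1+ difference of the null effect was 0.03 (95% interval -0.60 to 0.66, adjusted p = 0.963).

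Sox3 in THY1+ cells was at 7.70, 5.85 and 3.14 FPKM in WT and at 9.77, 11.5 and 5.10 in null libraries. The groups overlapped, since null replicate 3 lay below WT replicates 1 and 2. The log2 difference was 0.66 (SE 0.44, 95% interval -0.31 to 1.63, adjusted p = 0.383) and was not a call. Within each replicate number the null value was above the WT value. With a block for the replicate number added to the fit, the same difference was a call (adjusted p = 0.0482).

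Sox3 in KIT+ cells was at 4.48, 6.77 and 3.86 FPKM in WT and at 9.40, 9.80 and 3.67 in null libraries. The lowest value of all 6 was a null library. The log2 difference was 0.50 (95% interval -0.46 to 1.47, adjusted p = 0.572). With the block it was not a call either (adjusted p = 0.131). Replicate 3 had the lowest Sox3 in all 4 groups. Averaged over both fractions the difference was 0.58 (95% interval -0.10 to 1.27, adjusted p = 0.36). With the block its adjusted p was 0.0314, but the fold did not reach 1.5. Without the block, the intervals of both fractions reach from a fall to a rise of more than 2-fold. They show neither a change nor equal levels, and the THY1+ call depends on the block.

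**Figure D2:**
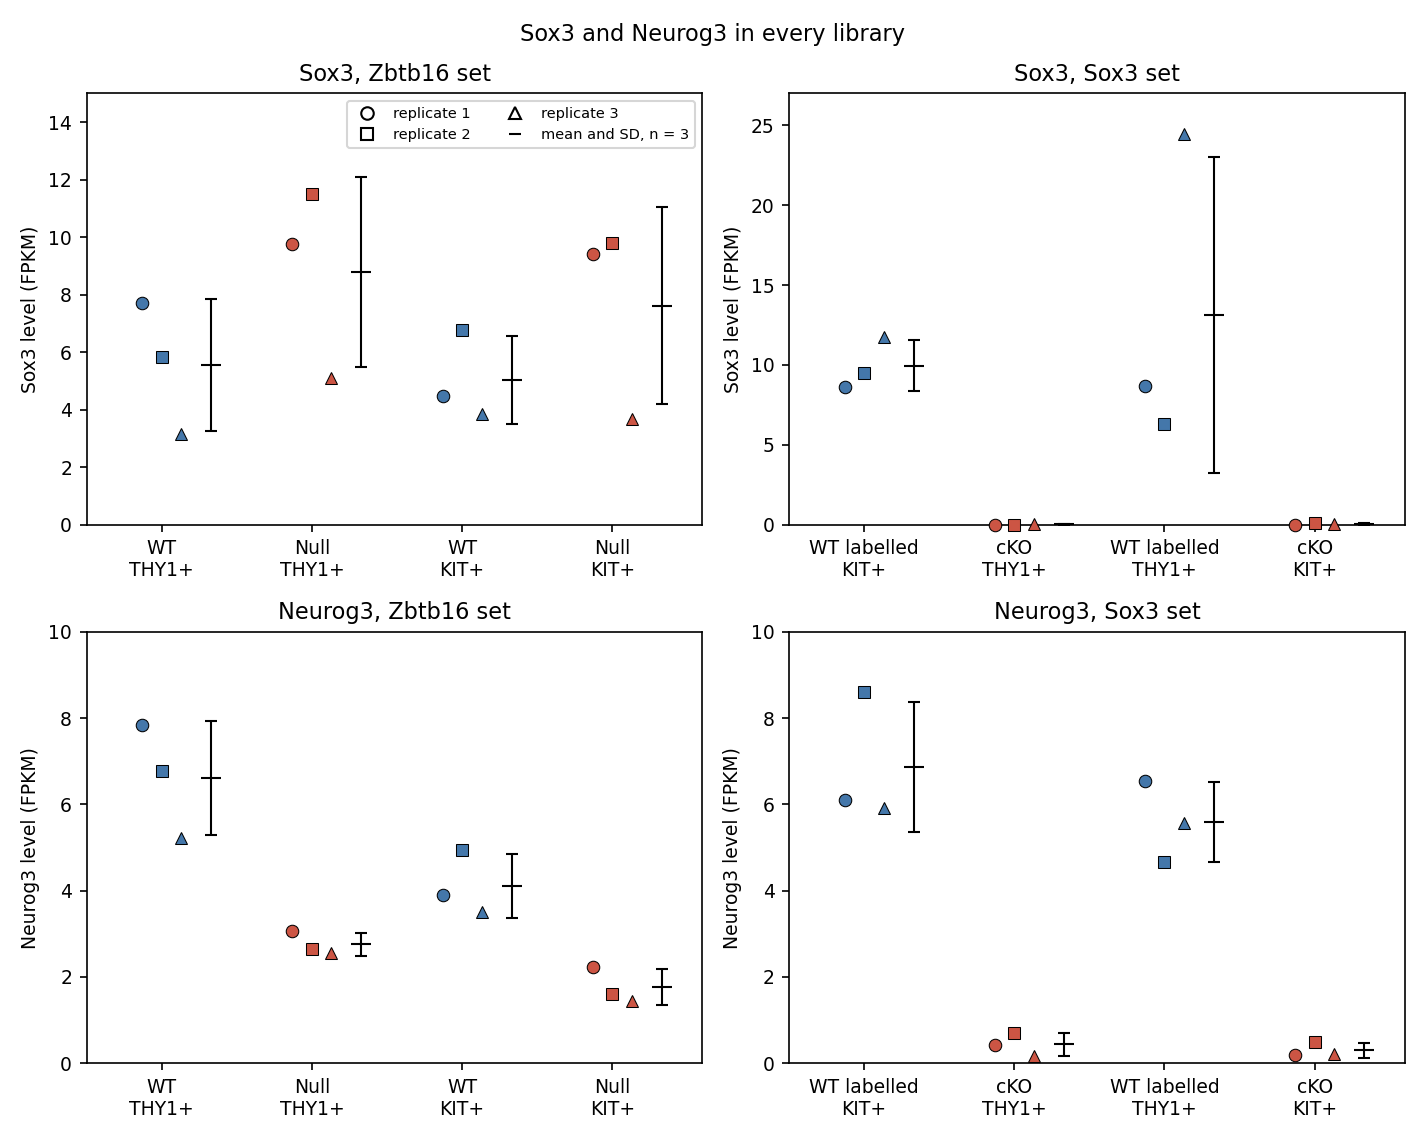
Sox3 (top) and Neurog3 (bottom) in FPKM (linear axes from 0) in every library of the Zbtb16 set (left) and the Sox3 set (right), where each cKO group stands beside the WT group that shares its markers. Points are libraries with the shape giving the replicate number, blue is WT, red is mutant, and bars are the mean and SD of 3 libraries. Neurog3 is at most 3.07 FPKM in the null and at most 0.707 FPKM in the cKO libraries.

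FPKM are per length, so the members can be set against each other within a library. The ratio of Neurog3 to Sox3 FPKM was 1.02, 1.16 and 1.66 in WT THY1+ and 0.314, 0.23 and 0.5 in null THY1+ libraries. In KIT+ libraries it was 0.87, 0.73 and 0.905 in WT and 0.237, 0.164 and 0.391 in null. Every null library was below every WT library of its fraction. The mean log2 ratio (0.1 added to each FPKM) was lower in null by 1.88 in THY1+ and 1.69 in KIT+ cells. The exact two-sided permutation test gave p = 0.1 for each, the smallest that 3 against 3 libraries allow, so this test could not reach 0.05.

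**Figure D3:**
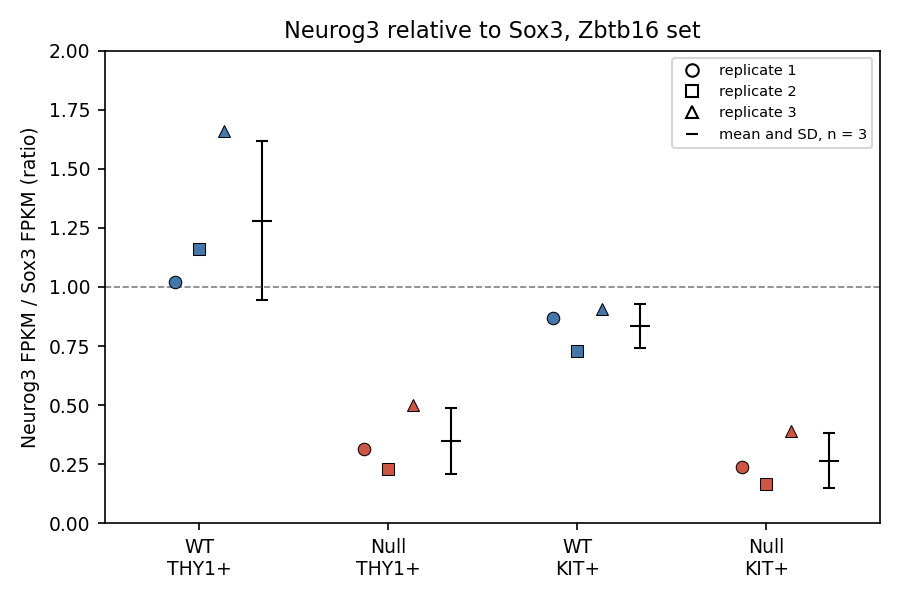
Neurog3 FPKM divided by Sox3 FPKM (linear axis from 0, dashed line at equal levels) in each library of the Zbtb16 set. Points are libraries with the shape giving the replicate number, blue is WT, red is null, and bars are the mean and SD of 3 libraries. The null libraries lie between 0.164 and 0.5 and the WT libraries between 0.73 and 1.66.

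By fraction, Neurog3 was lower in KIT+ than in THY1+ cells in both genotypes. The log2 difference was -0.67 in WT (SE 0.202, adjusted p = 0.0282) and -0.64 in null (adjusted p = 0.0264). These are calls among many, since 14.0% of genes were called lower in KIT+ cells of WT and 16.0% in null. The WT call was lost in 4 of the 6 fits without a library (without replicate 1 or 3 of WT KIT+ or replicate 1 or 2 of WT THY1+), and the null call in 3 of 6 (without replicate 2 or 3 of null KIT+ or replicate 1 of null THY1+). When libraries were rescaled to the 4 germ cell genes instead, the null difference was -0.13 (adjusted p = 0.628). For Sox3 the fraction differences were -0.09 in WT (95% interval -1.06 to 0.88) and -0.25 in null (-1.22 to 0.72), and neither was a call.

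By group mean, Neurog3 ran from 6.62 ± 1.32 FPKM (SD, n = 3) in WT THY1+ through 4.11 ± 0.749 in WT KIT+ and 2.75 ± 0.274 in null THY1+ to 1.76 ± 0.417 in null KIT+. WT KIT+ and null THY1+ are neighbours in this order that were not tested against each other, and their libraries did not overlap. Sox3 ran from 8.79 ± 3.3 FPKM in null THY1+ through 7.62 ± 3.43 in null KIT+ and 5.56 ± 2.29 in WT THY1+ to 5.04 ± 1.53 in WT KIT+. No neighbours in that order differed beyond their spread. Against the other genes of its family, Sox3 stood in place 3 of 19 Sox genes by mean FPKM in both WT groups and in place 2 in both null groups, with Sox4 highest throughout. Neurog3 stood in place 2 of 6 proneural bHLH genes in both WT groups and in place 3 in both null groups.

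Other cell types moved with genotype in part. In THY1+ cells the macrophage markers summed to 483 to 527 FPKM in WT and 223 to 417 in null, and the germ cell genes to 819 to 991 in WT and 935 to 1230 in null. With rescaling to the germ cell genes the THY1+ difference of Neurog3 was -1.55 (adjusted p = 0.00545). In KIT+ cells the germ cell genes summed to 800 to 993 in WT and 590 to 884 in null, and Leydig markers to 1190 to 2230 in WT and 2010 to 3070 in null. After that rescaling the KIT+ difference of Neurog3 was -1.05 and no longer a call (adjusted p = 0.119). The part of these other cells in the KIT+ difference was not tested beyond this rescaling.

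The targeted gene of the Sox3 set, Sox3 itself, was nearly absent from cKO libraries. Its FPKM were 8.63, 9.53 and 11.7 in WT labelled KIT+ (mean 9.97 ± 1.6, SD, n = 3), and 8.67, 6.28 and 24.4 in WT labelled THY1+ (13.1 ± 9.87), where replicate 3 stood well above the others. In cKO THY1+ libraries it was at 0, 0 and 0.0434 FPKM, which is 1 read in all, against 1178 reads in WT labelled KIT+. Its level was 0.0979% of that WT group's by pooled reads (exact 95% interval 0.00248% to 0.546%, counting error only). In cKO KIT+ libraries it was at 0, 0.0820 and 0.0410 FPKM, 3 reads in all, or 0.239% of WT labelled THY1+ by pooled reads (0.0492% to 0.700%). The limit of 3 reads corresponds to 0.0493 to 0.132 FPKM in these cKO libraries, so every cKO library was below it. The fitted log2 differences were -6.47 and -6.34 (adjusted p = 0.00012 and 0.000148), and their size is set by the 0.1 added to each value. They ranged from -3.42 with 1 added to -9.14 with 0.01 added in the first comparison.

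Neurog3 was far lower in every Sox3 cKO library than in any WT library of the set. Its FPKM were 6.10, 8.62 and 5.91 in WT labelled KIT+ (mean 6.88 ± 1.51) and 6.54, 4.68 and 5.57 in WT labelled THY1+ (5.60 ± 0.93). In cKO THY1+ libraries they were 0.418, 0.707 and 0.174 (mean 0.433 ± 0.267), from 19, 12 and 3 reads. In cKO KIT+ libraries they were 0.184, 0.494 and 0.219 (0.299 ± 0.17), from 8, 9 and 4 reads. Reads were therefore still found in all 6 cKO libraries, with cKO THY1+ replicate 3 at the limit of 3 reads.

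Averaged over both fractions, a comparison that does not depend on the WT labels, the log2 difference of Neurog3 was -3.86 (SE 0.269, 95% interval -4.45 to -3.27, adjusted p = 8.82e-05), or 14.5-fold lower. It was called in each of 12 fits without a library, which again count the fractions as independent. In this comparison 600 genes, 2.83% of the 21212 tested, were called lower, and only 1 gene, Sox3, had a larger fall.

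Between the groups with THY1+ markers, cKO THY1+ minus WT labelled KIT+, the difference was -3.82 (SE 0.381, adjusted p = 0.0026), and the cKO mean was 6.30% of the WT mean. This was 1 of only 14 genes called lower (0.0660%), and its fall was again the next after that of Sox3. The call was kept in all 6 fits without a library. It was lost with replicates 2 and 3 alone (-3.94, adjusted p = 0.18) and when only the compared groups entered the fit (-3.82, adjusted p = 0.0544).

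Between the groups with KIT+ markers, cKO KIT+ minus WT labelled THY1+, the difference was -3.90 (SE 0.381, adjusted p = 0.0014), with the cKO mean at 5.35% of the WT mean. Here 970 genes were called lower (4.57%), and the fall of Neurog3 had rank 4. With labels taken at their word the differences were -3.54 in THY1+ and -4.19 in KIT+ (adjusted p = 3.36e-05 and 9.3e-06), with ranks 25 and 119, where 11.3% and 12.6% of genes were called lower. With 1 FPKM added in place of 0.1 the averaged difference was -2.40, still a call.

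Between cKO fractions the difference of Neurog3 was -0.36 (95% interval -1.20 to 0.47, adjusted p = 0.509). Between WT groups as labelled it was 0.29 (-0.55 to 1.12, adjusted p = 0.642), which read by markers is a value 0.29 higher in the libraries with THY1+ markers. Neither was a call. Within its family, Sox3 stood in the WT groups of this set in place 2 of 17 Sox genes and Neurog3 in place 2 of 4 proneural bHLH genes. The cKO groups had them in places 17 and 3.

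**Figure D4:**
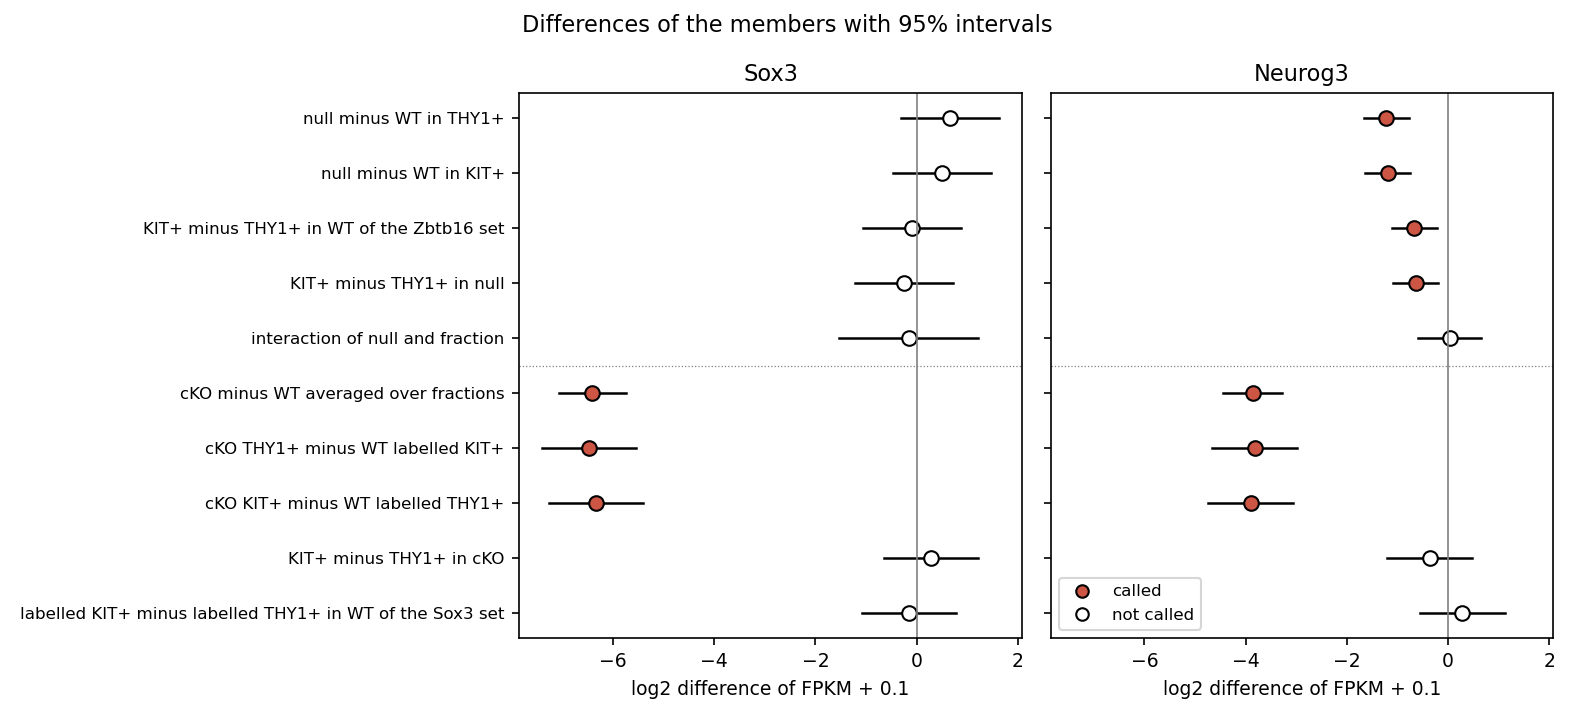
Log2 differences of FPKM + 0.1 for Sox3 (left) and Neurog3 (right), with 95% intervals, in the comparisons of the Zbtb16 set (above the dotted line) and the Sox3 set (below it). Filled points are calls. For Neurog3 the null differences lie near -1.2 in both fractions and the cKO differences between -3.9 and -3.8.

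The germ cell genes were lower in cKO than in WT libraries with KIT+ markers (629 to 868 against 1040 to 1150 FPKM) and also with THY1+ markers (872 to 1020 against 1040 to 1200). The 5 Leydig markers summed to 2440 to 4880 FPKM in cKO KIT+ and 1220 to 1980 in WT labelled THY1+. They summed to 67.3 to 105 in cKO THY1+ and 47.6 to 101 in WT labelled KIT+. With rescaling to the 4 germ cell genes Neurog3 still differed by -3.63 (THY1+ markers, adjusted p = 0.00244) and -3.49 (KIT+ markers, adjusted p = 0.000668).

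The other genes of the progenitor state moved less than Neurog3. Of the 6 on the list (Nanos3, Rarg, Lin28a, Upp1, Sohlh1 and Sohlh2), none was a call in Zbtb16 null cells of either fraction. Over all genes 3.98% were called in null THY1+ and 0.259% in null KIT+ cells. The medians of the 6 were -0.15 in THY1+ and -0.27 in KIT+ against -0.03 and 0.01 over all genes. In the Sox3 cKO all 6 were lower on average and 3 were calls, where 2.83% of all genes were called lower. Lin28a, an RNA-binding repressor of let-7 processing, fell most (log2 difference -1.21, SE 0.126, adjusted p = 0.000854), from 47.2 to 61.3 FPKM in WT labelled KIT+ to 24.5 to 28.8 in cKO THY1+. Upp1, a uridine phosphorylase, fell by 0.64 (adjusted p = 0.0174), and Sohlh1, a bHLH factor needed for differentiation, fell by 0.60 (adjusted p = 0.00382). The list's median was -0.57 against 0.03 over all genes and -0.365 for the 4 germ cell genes. The part of the germ cell fall in these differences was not tested. With KIT+ markers 3 of the 6 were called lower, as 4.57% of all genes were. These were Lin28a (-1.40, adjusted p = 0.00177), Sohlh1 (-0.76, adjusted p = 0.00601) and Sohlh2 (-0.71, adjusted p = 0.00559). The median of the 4 germ cell genes was -0.51 in that comparison. In the groups with THY1+ markers alone none of the 6 was a call, where only 0.0707% of all genes were. Lin28a differed there by -1.03 (adjusted p = 0.0854).

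Some genes of the stem state were called lower in null THY1+ cells, as Neurog3 was, while in the Sox3 cKO most were higher on average. In null THY1+ cells 4 of 11 tested were called lower, against 1.26% of all genes, namely Eomes (-1.15, adjusted p = 0.00858), T (-1.25, adjusted p = 0.0191), Pax7 (-0.96, adjusted p = 0.0329) and Shisa6 (-1.19, adjusted p = 0.0179). Eomes and T encode T-box factors, Pax7 a paired box factor and Shisa6 a membrane protein, and their means in WT THY1+ cells ran from 0.519 to 2.77 FPKM. The median of the 11 was -0.03, the same as over all genes. By fraction, 10 of the 11 were called lower in KIT+ than in THY1+ cells of WT, as 14.0% of all genes were. Shisa6 was not among these, and in null it was called higher in KIT+ cells (1.29, adjusted p = 0.00118). It was also not a call when both null fractions were averaged. In null KIT+ cells none of the 11 was a call, where 0.259% of all genes were. Averaged over the null fractions Eomes, T and Pax7 were again called lower, as was Lhx1, a LIM homeobox gene (-0.88, adjusted p = 0.0426), while Id4, an ID inhibitor that marks stem SPG, was called higher (0.73, adjusted p = 0.0124), where 1.55% of genes were called higher. With 1 FPKM added in place of 0.1, 1 of these 5 averaged calls and 3 of the 4 calls in null THY1+ cells were left. Against WT, none of the 11 was a call in the Sox3 cKO on average or with THY1+ markers, where 10.3% and 0.0707% of all genes were. On average 9 of 11 were higher (median 0.51 against 0.03 over all genes). With KIT+ markers Gfra1, the GDNF receptor subunit, rose by 0.76 (adjusted p = 0.0391) in cKO, as did Etv5, an ETS factor (0.90, adjusted p = 0.0473), and Shisa6 (0.94, adjusted p = 0.0257). In that comparison 12.4% of genes were called higher.

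Of the 6 genes listed for differentiating SPG, 5 were called higher in KIT+ than in THY1+ cells of WT in the Zbtb16 set. Over all genes 7.21% were called higher there. The other, Ccnd2, was called lower (-1.58, adjusted p = 0.000149), as 14.0% of all genes were. None of the 6 was a call in either null fraction against WT (medians -0.05 in THY1+ and -0.28 in KIT+). Over all genes 3.98% were called in null THY1+ and 0.259% in null KIT+ cells. In the Sox3 cKO 3 of the 6 were called lower on average, namely Crabp1, a retinoic acid binding protein (-0.90, adjusted p = 0.00162), Stra8, the retinoic acid target required for meiosis (-0.88, adjusted p = 0.00162), and Rhox13, a homeobox gene (-0.80, adjusted p = 0.00251). They were the 3 calls with KIT+ markers too, at -1.14, -1.29 and -1.09, and none was a call with THY1+ markers. Over all genes 2.83% were called lower on average, 4.57% with KIT+ markers but 0.0660% with THY1+ markers. The germ cell genes had median differences of -0.51 with KIT+ markers and -0.22 with THY1+ markers. Whether the fractions differed was not tested.

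Among the 18 other Sox genes, 15 were tested in each set. In null THY1+ cells 1 was called, Sox6 (0.85, adjusted p = 0.0119), where 2.71% of genes were called higher, and in null KIT+ cells none was (0.192% called higher). In the Sox3 cKO Sox5 and Sox7 were called higher on average (0.82 and 0.81, adjusted p = 0.0074 and 0.030), where 7.49% of genes were, and both stayed under 1 FPKM in every group mean of that set. Sox2, a close relative of Sox3 in the SOXB1 group, was at most 0.604 FPKM in any group mean. Averaged over the null fractions it was called higher (0.72, adjusted p = 0.026), with means of 0.33 in WT and 0.604 FPKM in null THY1+ cells. Sox1, the other member of that group, was too low to test in the Zbtb16 set. With 1 FPKM added in place of 0.1, no Sox gene on the list was a call in any of these comparisons. Of the E proteins and ID inhibitors, which pair with or sequester bHLH factors, none of 6 was a call in null cells. Over all genes 3.98% were called in null THY1+ and 0.259% in null KIT+ cells. The directions of the 6 follow. All 6 were lower in null THY1+ (median -0.38) and 5 of 6 were higher in null KIT+ cells (median 0.47). The median differences of stromal, endothelial and Leydig markers went the same way, at -0.60, -0.55 and -0.82 in THY1+ and 0.72, 0.65 and 0.62 in KIT+ cells, with Sertoli markers at -0.58 and 0.08. The part of these cells in the shifts was not tested. Tcf4 (0.82, adjusted p = 0.00266) and Id2 (0.63, adjusted p = 0.0318) were called higher in the Sox3 cKO. Endothelial markers moved with them and summed to 32.0 to 50.3 FPKM in cKO KIT+ and 15.2 to 21.3 in WT labelled THY1+. The part of endothelial cells in these rises was not tested.

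Of the other proneural bHLH genes, few were measurable. Atoh8 and Ascl2 were above 3 FPKM in every group, and Ascl2 was called lower with KIT+ markers (-0.77, adjusted p = 0.0163), as 4.57% of all genes were. Among genes known as NEUROG3 targets in other tissues, Hes6 and Cbfa2t3 differed by -0.33 and 0.36 in the Sox3 cKO on average (adjusted p = 0.0804 and 0.135) and were not called.

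The Notch pathway held 17 tested genes, of which none was called in either null fraction. Over all genes 3.98% were called in null THY1+ and 0.259% in null KIT+ cells. In the Sox3 cKO, Dll1 (-1.25, adjusted p = 0.00845) and Dll3 (-1.07, adjusted p = 0.00874), both Delta-like ligands, and Hes5, a bHLH repressor and Notch target (-1.12, adjusted p = 0.00304), were called lower on average. Dll4, a ligand of endothelial cells, was called higher (0.61, adjusted p = 0.0376), and with KIT+ markers Jag1, a Jagged ligand, was (0.71, adjusted p = 0.00322). On average 2.83% of all genes were called lower and 7.49% higher, and with KIT+ markers 12.4% were called higher. The median of the 17 was 0.05 against 0.03 over all genes, and with 1 FPKM added in place of 0.1 only 1 of the 4 averaged calls was left. Dll1 was at 0.610 to 1.25 FPKM in WT labelled THY1+ and at 0.140 to 0.520 in cKO KIT+, a difference at low levels. With THY1+ markers none of the 17 was a call, where 0.0707% of all genes were, and Dll1 differed there by -1.10 (adjusted p = 0.295). Of the 6 upstream regulators only Zbtb16 was called in the null. Il6st, the shared receptor chain of the interleukin-6 family, was called higher in the Sox3 cKO on average (0.84, adjusted p = 0.00301), as 7.49% of all genes were. Zbtb16 itself differed by -0.28 in the Sox3 cKO (95% interval -0.72 to 0.17, adjusted p = 0.338).

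**Figure D5:**
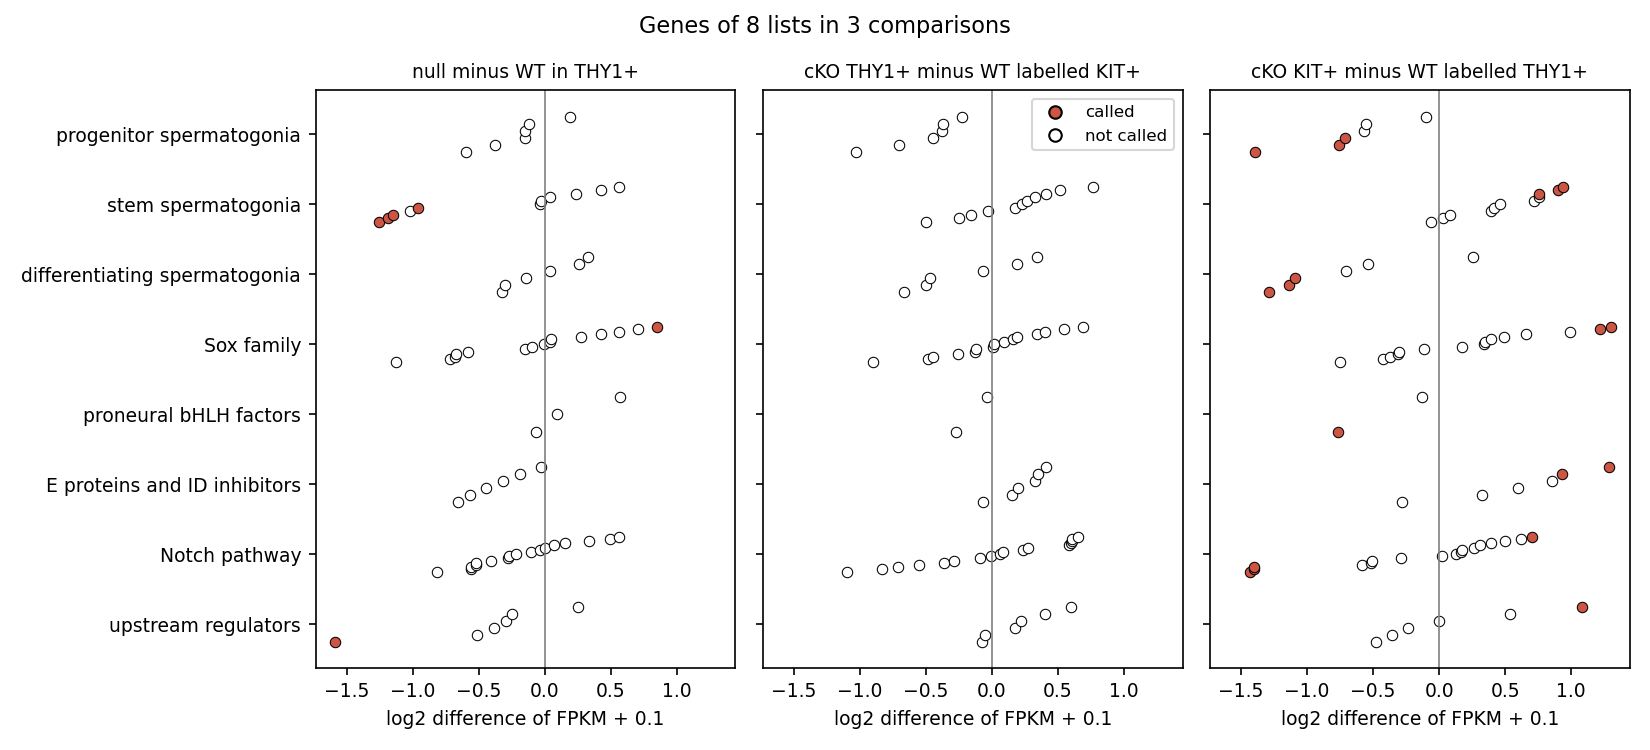
Log2 differences of FPKM + 0.1 for each tested gene of 8 lists, in null minus WT in THY1+ cells and in both comparisons of the Sox3 cKO with the WT group that shares its markers. Points are genes, ordered within a list by their difference, and filled points are calls. No gene plotted is a call in cKO THY1+ minus WT labelled KIT+, where 0.0707% of all genes tested were.

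The patterns of other genes over the 12 libraries of a set were compared with those of the members as a description, among genes with a mean of at least 1 FPKM. The libraries fall into groups and differ in depth, so these correlations carry no p. In the Zbtb16 set, Neurog3 was most like Gjb2 (Pearson r = 0.960), Apc (0.960), Grik3 (0.946), Fnip2 (0.946) and Zbtb16 (0.943), and Sox3 was most like Lsm14b (0.959), 2410016O06Rik (0.956), Wrnip1 (0.948), Thap4 (0.945) and Pnpla2 (0.929). The r between the members was -0.15 there. Over the libraries of the Sox3 set, the gene most like Sox3 was Neurog3 (0.961), and among the next were Xlr5c (0.954), Zfp941 (0.949) and Zfp105 (0.946). Among the genes most like Neurog3 were H2-Q2 (0.972), Sox3, 4933416C03Rik (0.948) and Zfp941 (0.939). In the Sox3 set, Sox3 was nearly absent from every cKO library and present in every WT library. A gene that fell in the cKO can therefore have a high r with Sox3 by design. Likeness within a genotype was not tested. Xlr5c and H2-Q2 belong to multigene families whose reads may be shared between copies.

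Nearby measured protein-coding genes were looked at in the same comparisons of null with WT and of cKO with the WT group that shares its markers, and none was called lower in more than 1 of them. Below Neurog3 on chromosome 10 lie Col13a1 and H2afy2, at 154 and 349 kb, and above it Tspan15 and Tacr2, at 50.6 and 118 kb. Tacr2, at a mean of 0.221 FPKM, was the only call among them in null THY1+ cells (-1.12, adjusted p = 0.033). None of the 4 was called in null KIT+ cells or in cKO THY1+ minus WT labelled KIT+, and with KIT+ markers Tacr2 (0.99, adjusted p = 0.0125) and Col13a1 (0.69, adjusted p = 0.0471) were called higher. Near Sox3 on chromosome X, Mcf2, 712 kb below, was too low to test, and 4933402E13Rik and 3830417A13Rik, 1390 and 3280 kb above, were not called in the cKO. In null THY1+ cells 3830417A13Rik was called higher (1.69, adjusted p = 0.000497).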

How the data were processed

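The authors sequenced stranded, ribosome-depleted RNA libraries, aligned the reads to mm10 with Novoalign and deposited FPKM values per gene and library in 2 tables, 1 per set. The submitters' processing notes also name DESeq2. The deposited FPKM were used as they stand. Members and gene lists were chosen with earlier results of these data known, and the genes named follow a rule on the members, the calls within 9 lists, the sorting markers, the 5 most like genes and the 2 nearest genes on either side. Genes with a mean of at least 0.1 FPKM over the 12 libraries of a table were fitted as log2(FPKM + 0.1) with limma 3.58.1 in R 4.3.3 (group means, eBayes with trend and robust, two-sided), and the same code was tested on simulated data. Each set was fitted and scaled on its own. Adding 0.1 understates changes of low genes. Reads were recovered from FPKM steps. Sox3 and Neurog3 gave whole numbers in all 24 libraries at lengths of 2061 and 1540 bases. These lengths were picked near the annotated 2065 and 1674 because they gave whole numbers, so this is no check. At annotated lengths, 75.8% to 79.3% of low genes gave whole numbers (within 0.02 of a read). Intervals on reads and the limit of 3 reads cover counting error only. Each library came from the pooled testes of 3 mice, and the study describes its RNA-seq replicates as independent and biological. The labels say no more of how replicates differ. The p-values measure the spread between these libraries, which may be technical in part. Alternatives were other pseudocounts, filters, scalings, a replicate block, other variance settings, fewer groups and leaving out libraries. Some genes that this rule names are not reported here.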

Additional observations from a re-analysis of the deposited data

How the results depend on the processing

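All 26 differences of Sox3 and Neurog3 kept their direction and call with a pseudocount of 0.01, without a filter, with a filter at 1 FPKM, with median ratio rescaling and with plain eBayes. With a pseudocount of 1, Neurog3 lost its call for null minus WT in KIT+ (-0.89), and for KIT+ minus THY1+ in WT of the Zbtb16 set (-0.57) and in null (-0.45), where adjusted p stayed under 0.05 but the fold did not reach 1.5. List calls in the averaged Sox3 cKO comparison dropped from 16 to 10, and 4 of 5 most like genes were shared for 3 of the 4 likeness lists. Rescaled to the 4 germ cell genes, a setting chosen after seeing the data, Neurog3 lost the same calls (-1.05, -0.63 and -0.13), and 2 uncalled differences of Sox3 turned, KIT+ minus THY1+ in null (0.27) and the interaction of null and fraction (0.33). With only the compared groups in the fit, Neurog3 lost its calls for null minus WT in KIT+ (-1.19) and cKO THY1+ minus WT labelled KIT+ (-3.82). With replicates 2 and 3 only, that cKO comparison lost its call for Sox3 (-6.48) and Neurog3 (-3.94). Both of these settings use fewer libraries, and the cause was not tested for the others. Leaving out a library in turn, Neurog3 ranged from -1.36 to -1.05 for null minus WT in KIT+, from -0.83 to -0.54 for KIT+ minus THY1+ in WT of the Zbtb16 set and from -0.81 to -0.51 in null, with the lost calls given above. Uncalled differences that changed sign ranged for Sox3 from -0.45 to 0.19 (KIT+ minus THY1+, WT of the Zbtb16 set), -0.60 to 0.21 (null), -0.50 to 0.30 (interaction) and -0.56 to 0.42 (WT labelled fractions of the Sox3 set), and for Neurog3 from -0.14 to 0.19 (interaction) and -0.78 to 0.0026 (KIT+ minus THY1+ in cKO). Every cKO minus WT difference of both genes was called in each fit without a library.

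With a replicate block, Sox3 for null minus WT in THY1+ became a call (0.66, adjusted p = 0.0482), and no other call of either gene changed. The labels do not say that a number marks a shared isolation, and the main fit left the numbers out for that reason. The study's methods describe WT littermates isolated along with the mutants. Same-numbered libraries correlated above 0.1 in 16 of 18 pairs in the Zbtb16 set and 12 of 18 in the Sox3 set. In these sets 12 of 12 and 10 of 12 libraries correlated best with their own number. What the numbers share was not tested, and the standard errors of the main fit take no account of it. Under the block, calls over all genes went from 890 to 1980 for null minus WT in THY1+, from 58 to 513 in KIT+, from 7 to 2756 for the interaction and from 15 to 29 for cKO THY1+ minus WT labelled KIT+. Neurog3 rests on 3 to 19 reads in a cKO library, which limits the precision of its level there.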
